A study of Macaca fascicularis with 44 samples.

Results

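Embryonic mesoderm was set against extraembryonic mesoderm within cynomolgus monkey (Macaca fascicularis) embryo cells that the labels place at E22, day 22 of culture counted from sperm injection. The assay reads RNA, chromatin accessibility and DNA methylation from the same cell, and only the RNA counts were used. The members were all cells of the 6 libraries of that day, numbered 28 to 33, whose deposited annotation reads Mesoderm or Extraembryonic Mesoderm. There were 367 of them among 3682 cells of 44 libraries, or among 529 cells of E22. Mesoderm held 170 cells, between 16 and 41 in a library, and Extraembryonic Mesoderm held 197, between 17 and 46 in a library. Both classes shared every experimental condition: wild-type genotype, in vitro culture of an embryo that had reached the expanded blastocyst, removal of extraembryonic tissue at dissection, enzymatic dissociation and picking of single cells by mouth pipette. The compared classes therefore came from the same libraries, and each library gave a pair of summed counts. Sums ranged between 1400030 and 4462118 counts for Mesoderm and between 2277232 and 5325019 for Extraembryonic Mesoderm.

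By the annotation all 6 libraries came from 1 embryo. The p-values below thus measure the spread between libraries of that embryo and not between embryos. The classes were also named by the study's authors, and the sources used here do not say from which measurements. If expression was used, a gene's difference was partly built into the classes, so a p-value describes how evenly a difference ran through the 6 libraries and is no test that the classes exist. All 170 Mesoderm cells belonged to a single fine cluster of the annotation, number 2, while Extraembryonic Mesoderm was made of cluster 8 with 125 cells, cluster 5 with 70 cells and cluster 22 with 2 cells.

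Mesoderm cells were somewhat shallower. The library mean of counts per cell was 103284 ± 22038 in Mesoderm and 125991 ± 13518 in Extraembryonic Mesoderm (SD, n = 6 libraries each), lower in Mesoderm in 5 of 6 libraries, and an exact two-sided permutation test over the paired libraries gave p = 0.125. Genes detected per cell were 4502 ± 364 in Mesoderm and 5025 ± 210 in Extraembryonic Mesoderm (SD, n = 6), lower in Mesoderm in 6 of 6 libraries, with an exact p of 0.03125, the smallest that 6 pairs allow, and 0.0625 after adjustment over these 2 measures.

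Mesoderm arises at the primitive streak and spreads into paraxial, intermediate and lateral plate mesoderm inside the embryo, which give somites, kidney, heart, limb buds and body wall. Extraembryonic mesoderm lines the yolk sac, amnion and chorion and forms the connecting stalk or allantois; in primates it appears early, lays down a loose collagen-rich matrix and is a source of the first blood vessels. Lateral plate mesoderm of the posterior embryo is continuous with the allantois, and the neighbouring tissues share regulators such as HAND1, the heart and extraembryonic mesoderm factor.

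The labels were first checked against defining markers. Of 10 embryonic mesoderm markers, 4 had enough counts for a test, and PRRX1 and PAX3 were higher in Mesoderm. The other tested markers, TWIST1 and OSR1, were not called and had negative log2 fold changes. PAX3 had a count in only 17 of 170 Mesoderm cells, and 80.9% of those counts came from 5 cells. The summed level of the 10 markers was lowest at 138, median 174 and highest at 233 CPM (counts of a gene for every 1000000 counts of that library and class) in Mesoderm, against 48.3, 66.4 and 104 CPM in Extraembryonic Mesoderm. PRRX1 made up most of that sum in Mesoderm. The paraxial genes gave no such signal: MEOX2, the somite homeobox gene, had no count in either class, and TBX6, the presomitic mesoderm factor, had a count in 1 of 170 Mesoderm cells and 2 of 197 Extraembryonic Mesoderm cells. A count in 0 of 170 cells allows up to 1.76% of cells with a count (3 of 170), which covers counting error only and does not limit the cells that express a gene. Of the 10 extraembryonic mesoderm markers, 8 were lower in Mesoderm. The sum of the 10 was 2476, 2791 and 3041 CPM in Mesoderm, against 7305, 8239 and 8845 CPM in Extraembryonic Mesoderm (lowest, median and highest library). LUM and POSTN, which return among the matrix genes below, made up most of that sum in Extraembryonic Mesoderm.

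The summed markers of other cell types overlapped between the classes, except those of endothelium. Endothelial markers summed to 43.7, 58.7 and 92.3 CPM in Mesoderm, against 204, 207 and 228 CPM in Extraembryonic Mesoderm. TEK made up most of that sum, with medians of 46.4 CPM in Mesoderm and 197 CPM in Extraembryonic Mesoderm. Of the 4 markers 2 could be tested, and 1 was lower in Mesoderm. Neural markers summed to at most 12.7 CPM in Mesoderm and 4.51 CPM in Extraembryonic Mesoderm, with SOX1 at 0 in both, while E22 Neural ectoderm cells had 32.7 CPM. Surface ectoderm markers had medians of 212 CPM in Mesoderm and 150 CPM in Extraembryonic Mesoderm, against 1355 CPM in E22 Non-neural ectoderm. Trophoblast markers had medians of 174 CPM in Mesoderm and 169 CPM in Extraembryonic Mesoderm, with CYP19A1 at 0 in both, and endoderm markers 63.1 CPM in Mesoderm and 62.8 CPM in Extraembryonic Mesoderm. Blood markers were near 0, and GATA1 was at 0 in both classes.

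Counts of each library were then compared in pairs, with library as a block. Of 10121 genes with enough counts, 1772 (17.5%) passed a Benjamini-Hochberg adjusted p of 0.05 in edgeR's quasi-likelihood test, a gene past this threshold being called higher or lower below. Of these, 749 (7.4%) were higher in Mesoderm and 1023 (10.1%) were lower, and the median log2 fold change (Mesoderm over Extraembryonic Mesoderm) of all tested genes was -0.04. All 6 Mesoderm sums lay above all 6 Extraembryonic Mesoderm sums for 393 genes (3.88%) and below them for 500 (4.94%). Asked for more than a 2-fold difference, the test called 21 genes (0.207%) higher and 179 (1.77%) lower. Large differences were thus mostly lower in Mesoderm, as the plot of fold change against level shows.

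**Figure D1:**
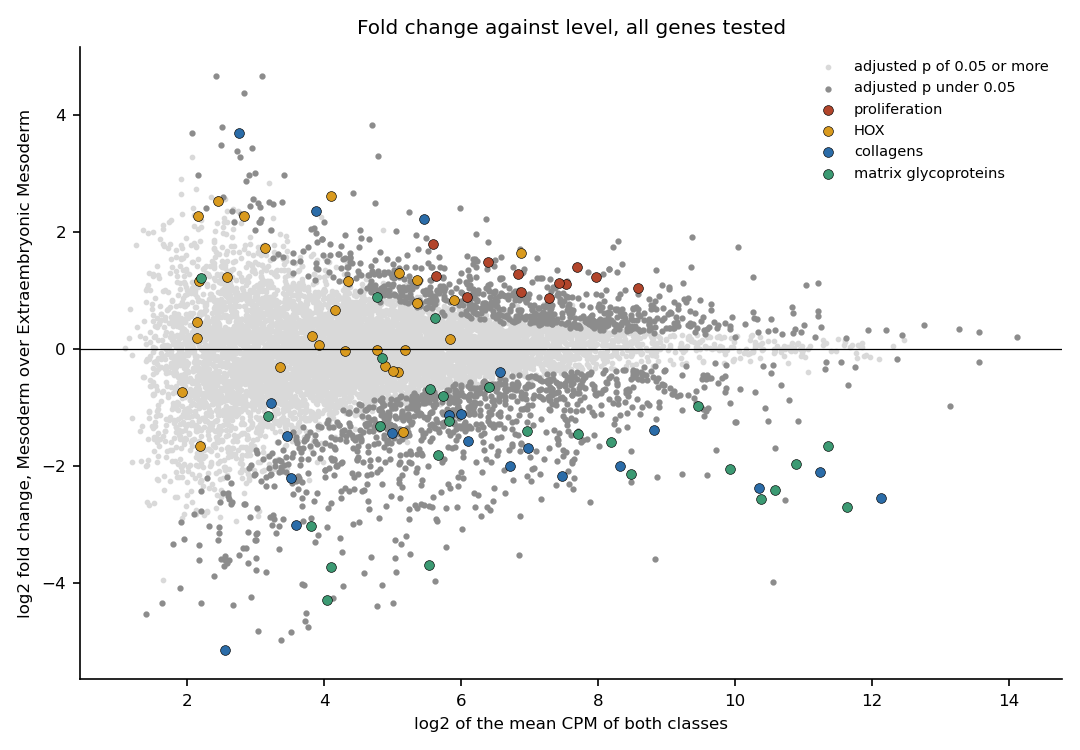
Log2 fold change (Mesoderm over Extraembryonic Mesoderm, y axis) against the log2 of the mean CPM over both classes (x axis) for each of 10121 tested genes; light grey points did not pass the adjusted threshold, dark grey points did, and coloured points are the proliferation genes, HOX genes, collagens and matrix glycoproteins. The proliferation genes lie above 0, while most collagens and matrix glycoproteins lie below it.

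The genes highest in Mesoderm with at least 50 CPM were led by PTN, AIF1L, COL2A1 and PRRX1. PRRX1, a homeobox factor of lateral plate and limb mesenchyme, had 94.7, 136 and 176 CPM in Mesoderm (lowest, median and highest library), against 20.7, 25.8 and 49.2 CPM in Extraembryonic Mesoderm. Its groups did not overlap, and the log2 fold change was 2.22 ± 0.18 (SE; adjusted p = 2.6e-07, edgeR). Thinned to 50000 counts per cell, 69.9% of 123 Mesoderm cells had a PRRX1 count, against 23.5% of 149 Extraembryonic Mesoderm cells. The shares before thinning were 68.8% of 170 and 29.4% of 197 cells. In E22 Neural ectoderm cells, which should lack it, 9 of 50 thinned cells had a count. Before thinning, the median depth over all cells was 111271 counts in Neural ectoderm, 90105 in Mesoderm and 98338 in Extraembryonic Mesoderm.

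PTN, which encodes the secreted growth factor pleiotrophin, had 27.3, 87.9 and 230 CPM in Mesoderm, against 4.14, 19.3 and 28.05 CPM in Extraembryonic Mesoderm. Each library was higher in Mesoderm, by 2.41 ± 0.23 on the log2 scale (adjusted p = 1.79e-06, edgeR), and the groups overlapped only because of the lowest Mesoderm library, number 33. AIF1L, an actin-bundling protein gene, had 55.8, 62.0 and 77.1 CPM in Mesoderm, against 6.96, 11.7 and 21.5 CPM in Extraembryonic Mesoderm (log2 fold change 2.34 ± 0.27). COL2A1, the fibrillar collagen of cartilage and notochord, had 55.2, 64.7 and 98.6 CPM in Mesoderm, against 7.16, 13.8 and 37.3 CPM in Extraembryonic Mesoderm (log2 fold change 2.23 ± 0.26). AIF1L and COL2A1 did not overlap between the groups.

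Some of these genes were also found in ectoderm of the E22 libraries. PTN was at 124 CPM in the pooled Mesoderm cells, 529 CPM in pooled Neural ectoderm and 49.9 CPM in Non-neural ectoderm, and CRABP1, the retinoic acid binding protein gene, was at 179, 838 and 63.0 CPM in the same 3 pools. PRRX1 had 144 CPM in Mesoderm, 15.8 CPM in Neural ectoderm and 13.7 CPM in Non-neural ectoderm. Among single cells, the median level of COL2A1 was 97.7 CPM in Neural ectoderm and 32.7 CPM in Mesoderm, and that of AIF1L 86.7 and 30.2 CPM. In the same order, ENO3 had medians of 397 and 420 CPM and STMN1 of 1513 and 1380 CPM. The pools and medians carry no replicate error and were not tested.

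Several of the other leading genes belong to dividing cells. STMN1, the microtubule-destabilising stathmin, had 1499, 1609 and 1837 CPM in Mesoderm, against 328, 500 and 558 CPM in Extraembryonic Mesoderm (log2 fold change 1.75 ± 0.10, adjusted p = 3.17e-09, edgeR). PCLAF, a PCNA-associated factor of DNA replication, PIMREG, a mitotic regulator, and MCM3, a subunit of the replicative helicase, had log2 fold changes of 1.83, 1.90 and 1.80. ENO3, the muscle form of enolase, had 423, 435 and 656 CPM in Mesoderm, against 105, 128 and 199 CPM in Extraembryonic Mesoderm (log2 fold change 1.84 ± 0.12). RDM1, TPD52L1, LRRC17, CA14 and ID3 completed the genes that did not overlap, with log2 fold changes between 1.71 and 2.03. CRABP1 had the highest adjusted p of the 15, at 68.8, 169 and 426 CPM in Mesoderm and 22.7, 40.4 and 92.4 CPM in Extraembryonic Mesoderm, and was higher in 5 of 6 libraries (log2 fold change 1.72 ± 0.44, adjusted p = 0.0109, edgeR). Against cluster 8 alone, CRABP1 was no longer called (1.59, adjusted p = 0.0573), and it was 2.64 when classes of at least 20 cells were required. Of its Mesoderm counts 66.0% came from 5 cells. A CRABP1 count was found in 70.0% of Mesoderm and 68.5% of Extraembryonic Mesoderm cells.

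**Figure D2:**
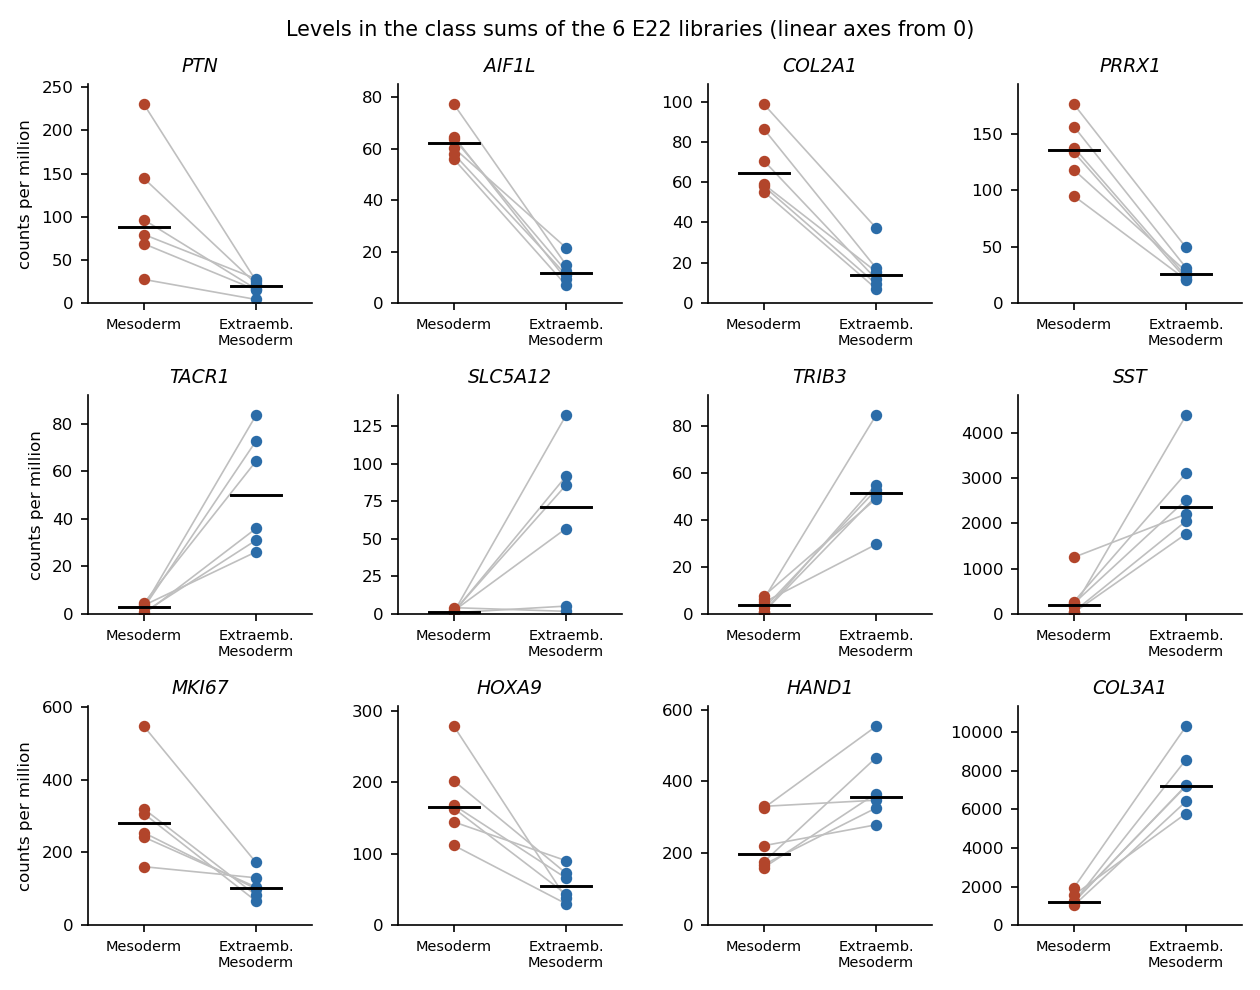
CPM (y axis, linear, starting at 0) of 12 genes in each of 6 libraries, Mesoderm on the left in red and Extraembryonic Mesoderm on the right in blue; lines join the sums of a library and bars mark medians. PRRX1 spans 94.7 to 176 CPM in Mesoderm and 20.7 to 49.2 CPM in Extraembryonic Mesoderm, and COL3A1 has 6 libraries in Mesoderm below all 6 in Extraembryonic Mesoderm.

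Lateral plate and cardiac genes did not move as a group. Of 13 tested genes of that list, 2 were higher and 5 lower in Mesoderm, with a median log2 fold change of -0.92. Counts for this list and those below stand beside shares of 7.4% higher and 10.1% lower over all tested genes. Besides PRRX1, ISL1 was higher: this LIM-homeobox factor of the second heart field and hindlimb field had 45.8, 77.9 and 119 CPM in Mesoderm, against 15.8, 20.1 and 39.6 CPM in Extraembryonic Mesoderm (log2 fold change 1.57 ± 0.27, adjusted p = 0.000511, edgeR). HAND1 was present in both classes, at 160, 199 and 331 CPM in Mesoderm, against 279, 357 and 554 CPM in Extraembryonic Mesoderm. It was lower in Mesoderm in 6 of 6 libraries although the groups overlapped (log2 fold change -0.83 ± 0.15, adjusted p = 0.00101). In Mesoderm, 103 of 170 cells had counts of both PRRX1 and HAND1, among 117 with PRRX1 and 148 with HAND1, and 72 had both PRRX1 and ISL1. Over all 170 cells the share with a count was 87.1% for HAND1 and 57.1% for ISL1. Whether these genes met in the same cells more often than such shares give was not tested.

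HAND2, the paralogue of HAND1, was also lower, at 41.8, 55.8 and 67.3 CPM in Mesoderm, against 67.2, 102 and 132 CPM in Extraembryonic Mesoderm (log2 fold change -0.92 ± 0.18). TBX20, a cardiac T-box factor, was at or near 0 in most Mesoderm libraries, with 0, 0.114 and 6.05 CPM, against 3.95, 11.7 and 16.6 CPM in Extraembryonic Mesoderm. Its log2 fold change was -4.36 ± 1.06 (adjusted p = 0.00825, edgeR), and -5.55 without library 32. Thinned cells with a TBX20 count were 2.44% in Mesoderm and 24.8% in Extraembryonic Mesoderm. The contractile genes TNNT2 (cardiac troponin T) and MYL7 (atrial myosin light chain) were lower too, by log2 fold changes of -1.73 ± 0.21 and -1.52 ± 0.22. TBX5 and TBX4, T-box factors of limb and heart fields, were not called, with log2 fold changes of -1.18 and -0.62.

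Paraxial, intermediate and limb programmes had few counts in both classes. Of 22 paraxial genes in the table, 3 could be tested and 1 was called. This was PAX3, a factor of dorsal neural tube and somite, with 1.59, 16.5 and 18.8 CPM in Mesoderm, against 0, 2.51 and 3.20 CPM in Extraembryonic Mesoderm. PAX3 had a count in 17 of 170 Mesoderm cells, 9 of 197 Extraembryonic Mesoderm cells and 34 of 57 Neural ectoderm cells, and 80.9% of its Mesoderm counts came from 5 cells. Its log2 fold change of 3.01 ± 0.95 (adjusted p = 0.0377, edgeR) lost its call without any 1 of libraries 29 to 33, with adjusted p between 0.0512 and 0.108, and was 3.71 without library 28. MSGN1, PAX1, PAX9, NKX3-2, MYF5 and RIPPLY2, genes of presomitic mesoderm, somites and their derivatives, had no count in either class. None of the 3 tested intermediate mesoderm genes or 4 tested limb and trunk mesenchyme genes was called, among them OSR1 at -0.53 and TWIST1 at -0.29. No primitive streak gene reached a testable count, and TBXT, the streak and notochord factor brachyury, was at 0 in both classes.

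HOX genes that differed came mostly from the HOXA cluster. HOX factors mark position along the head-to-tail axis, low numbers being anterior and high numbers posterior. Of 29 tested HOX genes, 9 were higher and 1 was lower in Mesoderm, with a median log2 fold change of 0.47, HOXA5, HOXA6, HOXA7, HOXA9 and HOXA10 being among the higher ones, and 4 of the 9 did not overlap between the classes. HOXA9 had 111, 165 and 278 CPM in Mesoderm, against 29.7, 54.5 and 90.02 CPM in Extraembryonic Mesoderm (log2 fold change 1.64 ± 0.22, adjusted p = 6.05e-05, edgeR). HOXA5 had 7.67, 23.2 and 74.3 CPM in Mesoderm, against 1.79, 4.42 and 8.14 CPM in Extraembryonic Mesoderm (log2 fold change 2.61 ± 0.42, adjusted p = 0.000295). HOXD4 had 43.7, 60.8 and 69.5 CPM in Mesoderm, against 16.4, 22.4 and 41.7 CPM in Extraembryonic Mesoderm (log2 fold change 1.18 ± 0.26). HOXA10 was higher by 0.84 ± 0.21.

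Other calls were less even over libraries. HOXA6, HOXA7, HOXB9 and HOXC9 had adjusted p between 0.0262 and 0.0449, and each lost its call in 4 or 5 of the 6 fits that left out 1 library, at adjusted p between 0.0555 and 0.135. The number of HOX genes called higher was 4 without library 28, 6 without library 29, 7 without library 30, 5 without library 31, 4 without library 32 and 7 without library 33. HOXA5, HOXA9, HOXA10 and HOXD4 kept theirs in each of these 6 fits, but with libraries 28 and 32 both left out 2 HOX genes were called higher, HOXA5 and HOXA9, HOXA10 having adjusted p = 0.136 and HOXD4 0.0628.

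HOXC8, of the trunk, was lower in Mesoderm, at 9.20, 17.99 and 40.3 CPM, against 24.6, 54.6 and 66.2 CPM in Extraembryonic Mesoderm. It was lower in 5 of 6 libraries (log2 fold change -1.41 ± 0.33, adjusted p = 0.00673, edgeR) and was not called when each cell had equal weight (adjusted p = 0.0879). The tested HOXB genes other than HOXB9 were not called, with values of 1.17 for HOXB1, 0.18 for HOXB6, -0.39 for HOXB7 and -1.66 for HOXB4. Nor was HOXA11, at 0.23, or HOXA13, the most posterior member of its cluster, at -0.74. HOXA9 was also at 132 CPM in pooled Neural ectoderm and 86.1 CPM in pooled Non-neural ectoderm of E22, against 159 CPM in pooled Mesoderm.

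The posterior regulators upstream of HOX genes went the same way. CDX2, a caudal-type homeobox factor of posterior embryo and trophectoderm, had 26.4, 29.7 and 44.9 CPM in Mesoderm, against 7.70, 11.9 and 19.3 CPM in Extraembryonic Mesoderm, without overlap (log2 fold change 1.33 ± 0.32, adjusted p = 0.00702, edgeR). CDX4 had 4.29, 10.8 and 33.8 CPM in Mesoderm, against 0, 1.06 and 5.05 CPM in Extraembryonic Mesoderm (log2 fold change 3.44 ± 0.71, adjusted p = 0.00238). A CDX4 count was found in 27 of 170 Mesoderm cells, and 66.1% of its Mesoderm counts came from 5 cells. Of 62 Mesoderm cells with a CDX2 count, 51 also had a HOXA9 count, which 71.2% of all Mesoderm cells had. CYP26A1, which degrades retinoic acid, was not called, at -1.58 (adjusted p = 0.0639).

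**Figure D3:**
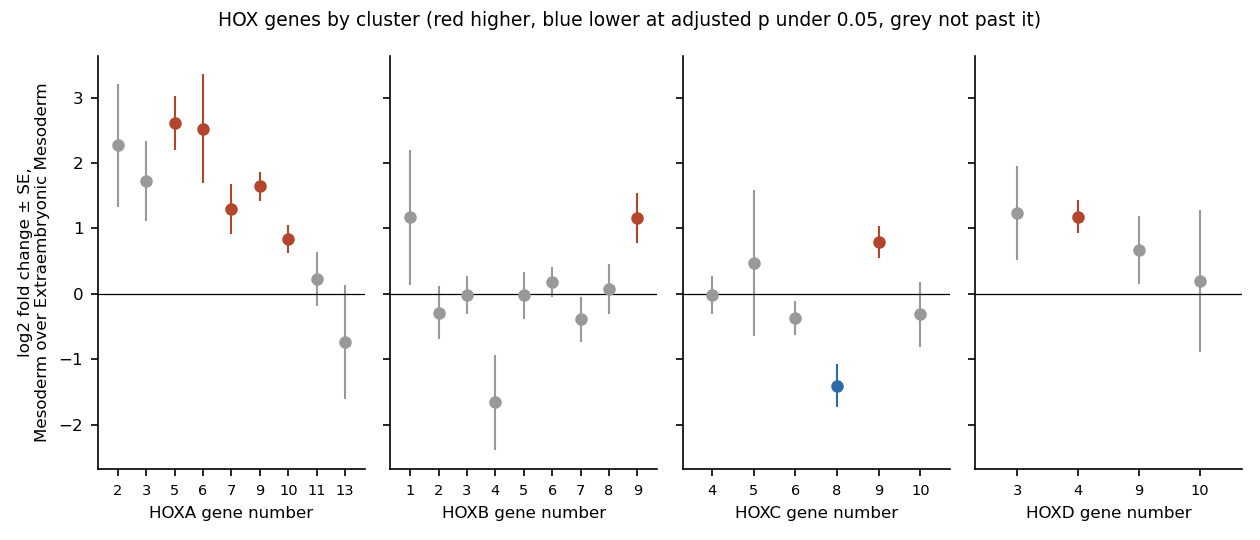
Log2 fold change (Mesoderm over Extraembryonic Mesoderm, y axis) with its SE for tested HOX genes, ordered by gene number along the x axis in 4 panels for clusters A, B, C and D; red points were called higher, blue lower, and grey did not pass. HOXA2 to HOXA10 lie above 0, and HOXC8 is the blue point.

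Proliferation genes were higher in Mesoderm without exception among those tested. All 12 of 12 were called, with a median log2 fold change of 1.18, and 4 of them did not overlap. MKI67, a protein of cycling cells, had 161, 280 and 547 CPM in Mesoderm, against 66.1, 102 and 172 CPM in Extraembryonic Mesoderm (log2 fold change 1.41 ± 0.19, adjusted p = 6.85e-05, edgeR). Thinned cells with an MKI67 count were 79.7% in Mesoderm and 51.0% in Extraembryonic Mesoderm. The helicase subunits MCM2 and MCM6 had log2 fold changes of 1.49 and 1.29, thymidylate synthase (TYMS) 1.24, topoisomerase TOP2A 1.05 and the mitotic cyclin CCNB1 1.11. None of the 12 was past the test against a 2-fold difference. Between 10 and 12 stayed called when 1 library was left out, the genes lost including CDK1, the mitotic kinase, without library 29, 31, 32 or 33 (adjusted p = 0.119, 0.113, 0.0677 and 0.0754).

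Of 7 tested DNA methylation genes, 3 were higher and 1 lower, beside 7.4% higher and 10.1% lower over all tested genes. DNMT3A, a de novo methyltransferase, had 74.7, 102 and 119 CPM in Mesoderm, against 43.3, 54.4 and 80.6 CPM in Extraembryonic Mesoderm (log2 fold change 0.78 ± 0.18, adjusted p = 0.00475, edgeR). The calls of the maintenance methyltransferase DNMT1 (0.68), the demethylating enzyme TET1 (0.60) and GADD45A (-0.80) lay near the threshold. They were lost without library 29, 31 or 33 for DNMT1 (adjusted p between 0.0517 and 0.0667), without library 29, 30, 32 or 33 for TET1 (between 0.0522 and 0.151) and without library 28, 29, 31 or 32 for GADD45A (between 0.053 and 0.111).

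The extracellular matrix lists held many of the genes that were lower in Mesoderm. Of 21 tested collagens, 15 were lower and 3 higher, with a median log2 fold change of -1.57, and the counts were 15 and 3 in each fit that left out a library. COL3A1, a fibrillar collagen of loose connective tissue, had 1025, 1218 and 1946 CPM in Mesoderm, against 5792, 7229 and 10318 CPM in Extraembryonic Mesoderm (log2 fold change -2.54 ± 0.09, adjusted p = 4.16e-11, edgeR). COL1A1 had 797, 884 and 1169 CPM in Mesoderm, against 2783, 4073 and 4807 CPM in Extraembryonic Mesoderm (log2 fold change -2.10 ± 0.09). Members of several collagen types were among the lower genes: type I (COL1A2, -2.36), type V (COL5A1, -3.01), type VI (COL6A1, -1.68) and type IV of basement membranes (COL4A1, -1.57). COL8A2 had the lowest value, -5.14 ± 0.94, with 0, 0 and 1.38 CPM in Mesoderm, against 6.73, 10.6 and 16.2 CPM in Extraembryonic Mesoderm, and -6.18 without library 29.

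The 3 collagens that were higher in Mesoderm were COL2A1, COL11A2 and COL26A1. COL11A2, whose product co-assembles with type II collagen in cartilage, had 4.48, 8.23 and 25.3 CPM in Mesoderm, against 0, 0.589 and 3.93 CPM in Extraembryonic Mesoderm (log2 fold change 3.70 ± 0.84, adjusted p = 0.00512, edgeR; 4.42 without library 28). COL26A1 had a log2 fold change of 2.36 ± 0.48. Each of the 3 lay without overlap between the classes. COL11A1 was not called, at -0.39.

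Among matrix glycoproteins and proteoglycans 20 of 26 tested genes were lower and none was higher in Mesoderm, with a median log2 fold change of -1.51. DCN, the small proteoglycan decorin, had 422, 805 and 1632 CPM in Mesoderm, against 3784, 5327 and 6931 CPM in Extraembryonic Mesoderm (log2 fold change -2.69 ± 0.19, adjusted p = 3.95e-08, edgeR). POSTN, periostin, had 201, 411 and 698 CPM in Mesoderm, against 2024, 2160 and 2640 CPM in Extraembryonic Mesoderm (log2 fold change -2.56 ± 0.19). FN1 (fibronectin) followed at -2.41 ± 0.11, VCAN (versican) at -2.04 ± 0.14, SPARC at -1.95 ± 0.08 and LUM (lumican) at -1.65 ± 0.07, all without overlap. The basement membrane genes LAMA2, LAMB1 and NID2 were lower by log2 fold changes of -3.69, -1.45 and -1.58. TNC, tenascin C, was not called, at 0.53. Between 17 and 19 of these genes stayed lower when 1 library was left out.

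The 12 extraembryonic mesenchyme markers overlap these lists and were all lower in Mesoderm, with a median log2 fold change of -2.23. OGN and ASPN, leucine-rich proteoglycans close to decorin, had log2 fold changes of -4.28 ± 0.70 and -3.71 ± 0.69, and -5.26 and -4.51 without library 28, the one Mesoderm library with the highest values of both. Integrins and cadherins included 7 lower and 1 higher genes of 18 tested: ITGA1, a collagen receptor subunit, was at -2.34 and ITGA5, the fibronectin receptor subunit, at -1.41, while the cadherin CDH2 was higher by 0.85. Of 11 contractile genes 8 were lower and none higher, with a median of -0.88, among them the smooth muscle genes TAGLN (-2.61 ± 0.16) and CNN1 (-2.70 ± 0.64). TAGLN had 45.5, 61.3 and 130 CPM in Mesoderm, against 303, 414 and 476 CPM in Extraembryonic Mesoderm.

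Genes of allantois and yolk sac mesoderm were lower in Mesoderm in 12 of 16 tested cases, none being higher, with a median log2 fold change of -1.26. KDR, the VEGF receptor of endothelial precursors, had 1.43, 2.94 and 5.24 CPM in Mesoderm, against 19.8, 43.6 and 75.5 CPM in Extraembryonic Mesoderm (log2 fold change -3.83 ± 0.34, adjusted p = 8.41e-07, edgeR). PITX1, a hindlimb factor, was at -1.14, the growth factor HGF at -1.95, ANXA1 at -2.74 and SNAI2, a mesenchymal transition factor, at -1.69. GATA6, a factor of endoderm and extraembryonic lineages, was not called, at -0.05.

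**Figure D4:**
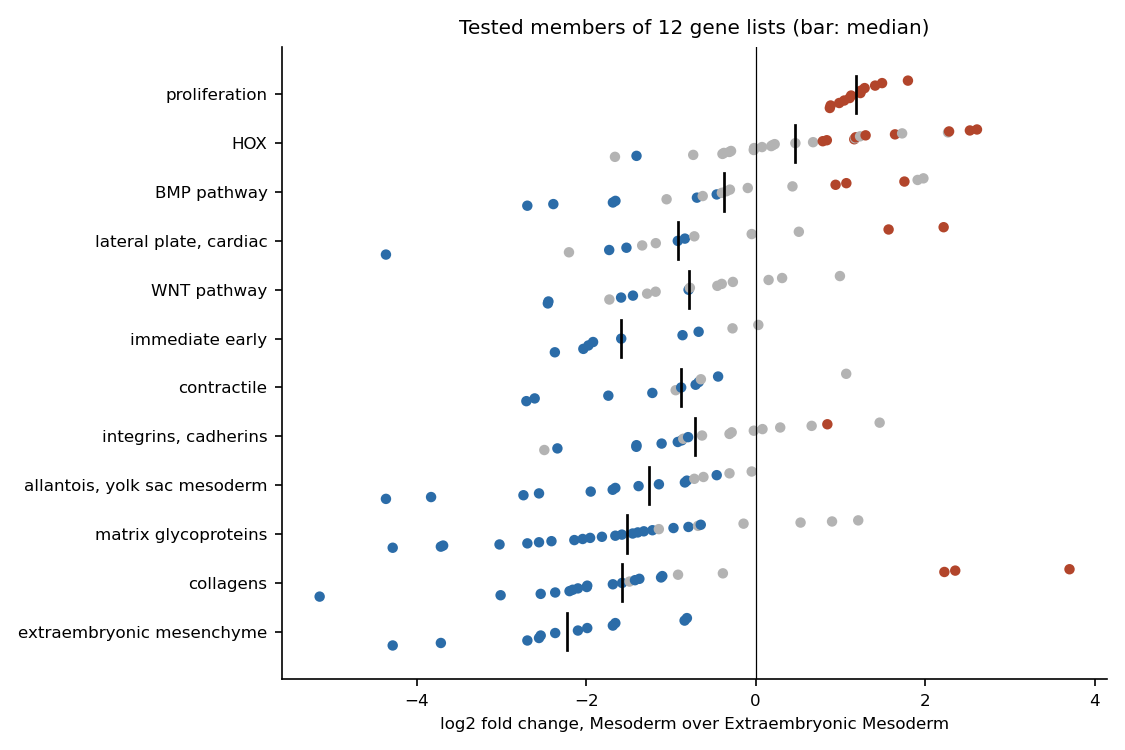
Log2 fold change (Mesoderm over Extraembryonic Mesoderm, x axis) of every tested gene in 12 gene lists, 1 list per line; red points were called higher, blue lower, grey did not pass, and a bar marks each list's median. All 12 proliferation genes are red, and no matrix glycoprotein, extraembryonic mesenchyme or allantois and yolk sac gene is.

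At E22 the called endothelial genes went with the same side. Of 6 tested, 4 were lower in Mesoderm: KDR, TEK, FLT1 and EGFL7. TEK, the angiopoietin receptor, had 35.4, 46.4 and 68.6 CPM in Mesoderm, against 178, 197 and 225 CPM in Extraembryonic Mesoderm (log2 fold change -2.17 ± 0.16, adjusted p = 6.33e-08, edgeR). FLT1 and EGFL7 were each at -0.92, FLT1 losing its call with cells of equal weight (adjusted p = 0.201) and EGFL7 against cluster 8 alone (adjusted p = 0.543). PECAM1, an adhesion protein of formed endothelium, was not called, with 1.14, 8.16 and 28.97 CPM in Mesoderm and 2.25, 5.31 and 25.2 CPM in Extraembryonic Mesoderm. Whether endothelial cells had a part in the difference of KDR and TEK was not tested.

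Of 18 tested BMP signalling genes, 3 were higher and 6 lower in Mesoderm, with a median log2 fold change of -0.37. BMPs are secreted ligands that act through SMAD factors, and ID1, ID2 and ID3 are among their direct targets. All 3 ID genes tested were higher in Mesoderm. ID3 had 362, 466 and 503 CPM in Mesoderm, against 60.6, 139 and 256 CPM in Extraembryonic Mesoderm (log2 fold change 1.76 ± 0.24, adjusted p = 6.81e-05, edgeR), ID2 was at 1.07 ± 0.19 and ID1 at 0.94 ± 0.19. The ligands called were lower. BMP2 had 2.14, 15.2 and 19.04 CPM in Mesoderm, against 42.6, 61.1 and 140 CPM in Extraembryonic Mesoderm (log2 fold change -2.69 ± 0.38). BMP5 was at -0.69 ± 0.14, and BMP4, at -0.46 ± 0.13, was called over all libraries (adjusted p = 0.0202) but not without library 28, 30 or 32 (adjusted p = 0.0825, 0.0681 and 0.0821). The receptor BMPR2, at -1.68 ± 0.47, lost its call without library 28, 29 or 31 (adjusted p = 0.0569, 0.0683 and 0.0776).

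Of the inhibitors, FST, the activin and BMP antagonist follistatin, had 39.9, 54.5 and 101 CPM in Mesoderm, against 115, 299 and 581 CPM in Extraembryonic Mesoderm (log2 fold change -2.39 ± 0.22, adjusted p = 1.34e-06, edgeR). BAMBI, a decoy receptor, had 98.5, 110 and 204 CPM in Mesoderm, against 260, 408 and 508 CPM in Extraembryonic Mesoderm (log2 fold change -1.65 ± 0.13). FST and BAMBI did not overlap between the classes. The targets MSX1 and MSX2 were not called, at -0.62 and -0.30.

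WNT genes were called only on the lower side, 5 of 15 tested with a median log2 fold change of -0.79. WNT2, a ligand of allantois and placenta in the mouse, had 9.29, 34.3 and 43.3 CPM in Mesoderm, against 109, 167 and 216 CPM in Extraembryonic Mesoderm, without overlap (log2 fold change -2.45 ± 0.26, adjusted p = 4.63e-06, edgeR). The extracellular WNT antagonists DKK1 and FRZB were at -2.44 ± 0.59 and -1.59 ± 0.23, the agonist RSPO2 at -1.45 ± 0.29, and the nuclear effector LEF1 at -0.79 ± 0.21 (adjusted p = 0.0165, and 0.0672 without library 31). AXIN2, a general WNT target, was not called, at -0.78.

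The FGF, NOTCH, hedgehog and retinoic acid lists had few tested genes, and their calls stand beside a share of 17.5% over all tested genes. FGFR2, a receptor, was the 1 FGF gene called of 7 tested, at -0.99 ± 0.26, and lost its call without library 29 or 31 (adjusted p = 0.0679 and 0.0677). FGF10, the limb and lung mesenchyme ligand, was at 2.83 ± 1.04 and not called (adjusted p = 0.0735). None of 8 NOTCH genes and none of 8 hedgehog genes passed, the hedgehog median being 0.75 with PTCH1 at 0.45. Of 12 retinoic acid genes, CRABP1 was higher, and STRA6, the retinol uptake receptor (-1.10 ± 0.17), and DHRS3, a retinal reductase (-1.21 ± 0.37), were lower; the DHRS3 call was lost without library 29, 30, 32 or 33 (adjusted p = 0.0817, 0.0575, 0.0821 and 0.0737). Of 16 ephrin and semaphorin genes, 3 were lower, EFNB2 (-2.26 ± 0.29), NRP1 (-1.13 ± 0.16) and NRP2 (-0.72 ± 0.12), all also genes of vessel growth. The ephrin ligand gene EFNA1 was higher (0.57 ± 0.19, adjusted p = 0.0415, edgeR) and lost its call without library 28, 29, 31 or 33 (adjusted p = 0.124, 0.0609, 0.0866 and 0.124).

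Of 11 imprinted and growth genes 4 were lower in Mesoderm and none was higher. IGFBP3, which binds insulin-like growth factors, had 211, 438 and 1003 CPM in Mesoderm, against 1254, 2349 and 5101 CPM in Extraembryonic Mesoderm (log2 fold change -2.58 ± 0.10, adjusted p = 6.57e-11, edgeR), and DLK1, an imprinted growth regulator, was at -2.18 ± 0.36. In the hypoxia and glycolysis list 3 of 10 genes were higher and 4 lower. The number higher was 2 without library 30 or 33 and 1 without library 29, 31 or 32, where BNIP3 (0.22) and ENO1 (0.21) lost their calls. SLC2A1, the glucose transporter, had 464, 621 and 798 CPM in Mesoderm, against 1304, 1385 and 1596 CPM in Extraembryonic Mesoderm (log2 fold change -1.24 ± 0.10), while the glycolytic enzyme gene PGK1 was higher by 0.40 ± 0.08. Of 9 immediate early genes, which dissociation also induces in many tissues, 7 were lower in Mesoderm with a median of -1.59, among them ATF3 (-2.37 ± 0.23), DUSP1 (-1.92 ± 0.20) and FOS (-0.86 ± 0.10). The part of dissociation in this difference was not tested.

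The 15 leading genes that were lower in Mesoderm, with at least 50 CPM in Extraembryonic Mesoderm, included receptors, transporters and secreted peptides. TACR1, the receptor of substance P, had 0, 2.95 and 4.60 CPM in Mesoderm, against 26.1, 50.03 and 83.4 CPM in Extraembryonic Mesoderm (log2 fold change -4.39 ± 0.43, adjusted p = 2.38e-06, edgeR). Thinned cells with a TACR1 count were 2.44% in Mesoderm and 34.9% in Extraembryonic Mesoderm, and 10.0% in Neural ectoderm. SST, the peptide hormone somatostatin, had 35.3, 194 and 1253 CPM in Mesoderm, against 1767, 2361 and 4382 CPM in Extraembryonic Mesoderm (log2 fold change -3.97 ± 0.45, adjusted p = 1.09e-05). An SST count was found in 87.6% of Mesoderm, 94.9% of Extraembryonic Mesoderm and 91.2% of Neural ectoderm cells, but a level above 1000 CPM in 6 of 170, 72 of 197 and 2 of 57 cells. The share of cells with any SST count therefore did not separate the classes as the level did.

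TRIB3, a pseudokinase of the stress response, had 0.896, 3.71 and 7.73 CPM in Mesoderm, against 29.5, 51.3 and 84.3 CPM in Extraembryonic Mesoderm (log2 fold change -4.03 ± 0.45), and CHAC1, a glutathione-degrading enzyme, was at -3.81 ± 0.41. AQP1, the water channel, had 7.97, 15.9 and 45.5 CPM in Mesoderm, against 78.6, 223 and 301 CPM in Extraembryonic Mesoderm (log2 fold change -3.51 ± 0.40). ENPEP, an aminopeptidase of pericytes and kidney, was at -3.38 ± 0.36 and C7, a complement component, at -3.07 ± 0.30. All of these were without overlap.

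SLC5A12, a lactate transporter, was carried by few cells. It had 0.896, 1.62 and 4.22 CPM in Mesoderm, against 1.79, 71.3 and 132 CPM in Extraembryonic Mesoderm, but 84.2% of its Extraembryonic Mesoderm counts came from 5 cells. It was lower in 5 of 6 libraries (log2 fold change -4.33 ± 0.75, adjusted p = 0.00064, edgeR), between -3.71 without library 28 and -5.27 without library 31. STMN2, a neuronal stathmin, was at -3.95 ± 0.59, and at -4.67 without library 33, the Mesoderm library with its highest value. It too came from few cells, with a count in 39 of 197 Extraembryonic Mesoderm cells and 64.9% of the counts in 5 of them, and it was at 7.83 CPM in pooled Mesoderm and 129 CPM in cluster 8. TRPV2, TENT5A, SLC38A5, ANKRD55 and MMP23B, the remaining genes of this group, lay between -3.57 and -3.18.

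A few genes of ectoderm and trophoblast differed although their marker sums were low. TFAP2A and GATA3, factors of surface ectoderm, amnion and trophoblast, were higher in Mesoderm by 2.04 ± 0.50 and 1.35 ± 0.32, while the epithelial genes EPCAM and KRT19 were not called, at 0.05 and -0.19. KRT7, a keratin of amnion and trophoblast, was lower in Mesoderm at 7.86, 30.8 and 62.4 CPM, against 49.2, 104 and 188 CPM in Extraembryonic Mesoderm (log2 fold change -1.93 ± 0.35). Of 9 tested trophoblast genes 4 were higher and 2 lower, of 7 surface ectoderm genes 3 higher, of 2 neural ectoderm genes 1 higher (CDH2), of 3 pluripotency genes 1 higher (SALL4, 0.99 ± 0.32, whose call was lost without library 29, 30, 32 or 33 at adjusted p between 0.0786 and 0.136), of 3 endoderm genes none, and of 6 lipid carrier genes 1 lower (APOE, -1.08 ± 0.14); no blood gene could be tested. The part of cells or free RNA of other types in these differences was not tested. TFAP2A and GATA3 were counted in both the trophoblast and the surface ectoderm list. ISL1 was counted in both the surface ectoderm and the lateral plate list.

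Extraembryonic Mesoderm held a pair of unlike fine clusters, and several of its differences rested on one of them. Values here are pooled CPM over cells, with no replicate error and no test, since the clusters were made from the same expression. PRRX1 was at 144 CPM in Mesoderm (cluster 2), 22.9 CPM in cluster 8 and 39.6 CPM in cluster 5, and MKI67 at 289, 124 and 55.5 CPM in the same order, so both clusters lay below Mesoderm. Cluster 8 carried the epithelial and cardiac-type genes. KRT7 was at 33.97 CPM in Mesoderm, 169 CPM in cluster 8 and 5.59 CPM in cluster 5, AQP1 at 22.1, 299 and 26.7 CPM, MYL7 at 43.1, 184 and 11.3 CPM, and TNNT2 at 47.0, 211 and 22.4 CPM. HAND1 had 209 CPM in Mesoderm, 498 CPM in cluster 8 and 135 CPM in cluster 5, and EPCAM 146, 179 and 17.1 CPM. Mesoderm thus lay between the clusters for KRT7, MYL7, TNNT2, HAND1 and EPCAM, above cluster 5 and below cluster 8.

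Cluster 5 carried the fibroblast-like matrix. COL3A1 was at 1419 CPM in Mesoderm, 5197 CPM in cluster 8 and 14189 CPM in cluster 5, LAMA2 at 10.3, 32.05 and 205 CPM, ENPEP at 11.4, 49.2 and 239 CPM, and BMP2 at 14.6, 49.4 and 187 CPM. ASPN was at 5.6 CPM in Mesoderm, 5.5 CPM in cluster 8 and 97.5 CPM in cluster 5, and HOXC8 at 24.5, 65.9 and 17.5 CPM. SST was even, with 441 CPM in Mesoderm, 2702 CPM in cluster 8 and 2669 CPM in cluster 5, as was POSTN with 487, 2308 and 2108 CPM. With cluster 8 alone on the extraembryonic side, the paired fit called 630 genes higher and 893 lower. PRRX1 was then at 2.50, PTN at 3.36, COL3A1 at -2.0 and LAMA2 at -2.32. Of 174 genes named or listed that were called, 21 were tested in this fit and lost their call. Genes with too few counts for a test in it, such as OGN and ASPN, are not among the 21.

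**Figure D5:**
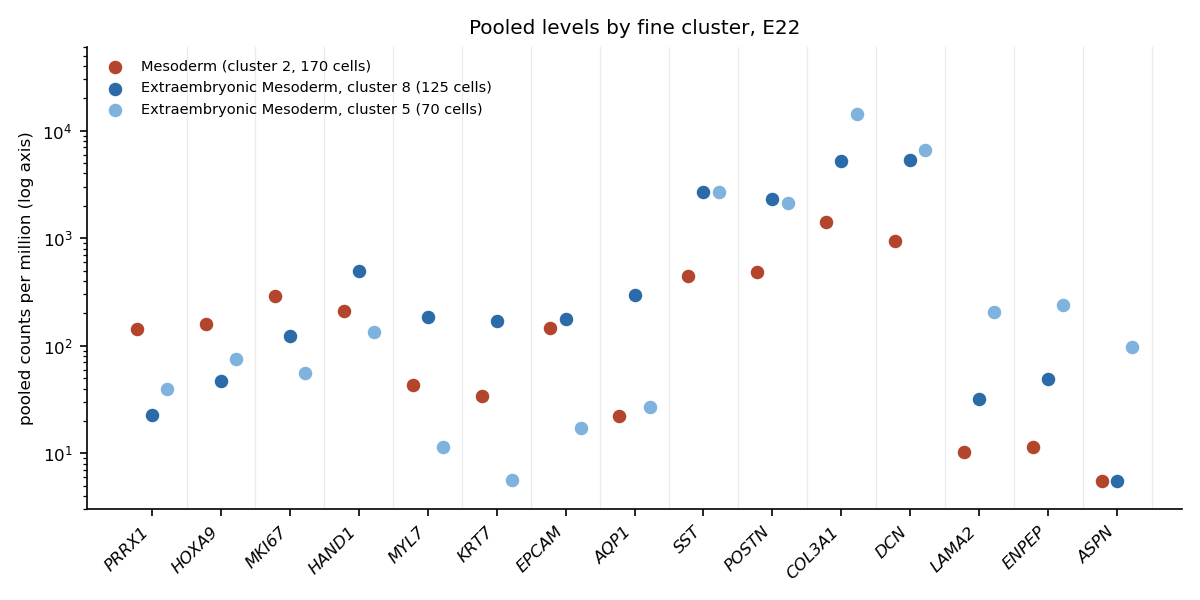
Pooled CPM (log axis) of 15 genes in Mesoderm (cluster 2, 170 cells) and in Extraembryonic Mesoderm cluster 8 (125 cells) and cluster 5 (70 cells), with no replicate error. KRT7, MYL7 and AQP1 are highest in cluster 8, and COL3A1, LAMA2 and ASPN in cluster 5.

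The annotation holds both classes in at least 10 cells each in a pair of other embryos, of E18 (26 Mesoderm and 33 Extraembryonic Mesoderm cells) and of E21 (23 and 94 cells). Their pools were set beside the E22 result with no test. The classes may have been named on all cells together, since fine cluster 2 held 170 Mesoderm cells at E22 and 231 over all days. Part of any likeness between the embryos may then be built into the classes. Of the 749 genes higher in Mesoderm at E22, 624 (83.3%) were higher in Mesoderm of the E18 embryo and 658 (87.9%) in that of the E21 embryo, where 51.4% and 47.9% of all tested genes were higher. Of the 1023 lower genes, 801 (78.3%) and 882 (86.2%) were lower. The 15 leading higher genes were higher in Mesoderm in 10 cases at E18 and 12 at E21. The 15 leading lower genes were lower in 11 and 14 cases. Proliferation genes were higher in 11 of 12 cases at E18 and 12 of 12 at E21, and all 12 extraembryonic mesenchyme markers were lower in both. Of the tested HOX genes, 10 were higher and 13 lower in Mesoderm at E18, and 11 higher and 17 lower at E21. Of the 3 tested posterior genes, CDX2 and CDX4 among them, 0 were higher at E18 and 1 at E21. Of the tested endothelial genes, 5 were higher and 1 lower in Mesoderm at E18, and 3 higher and 3 lower at E21. Of the tested BMP genes, 15 were higher and 3 lower at E18, and 8 higher and 10 lower at E21. COL3A1 was at 355 CPM in Mesoderm and 8551 CPM in Extraembryonic Mesoderm at E18, and at 1552 and 10131 CPM at E21.

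HOXA9 and HAND1 ran the other way in both embryos, differences that were not tested. HOXA9 was at 0.244 CPM in Mesoderm, against 42.9 CPM in Extraembryonic Mesoderm, in the E18 embryo, and at 8.60 CPM in Mesoderm, against 46.1 CPM in Extraembryonic Mesoderm, in the E21 embryo. HAND1 was at 580 CPM in Mesoderm and 324 CPM in Extraembryonic Mesoderm at E18, and at 541 and 207 CPM at E21, while it was lower in Mesoderm at E22. In the E18 embryo alone TRIB3 also went against E22, being among the 4 leading lower genes that were higher in Mesoderm there. TRIB3 had 26.1 CPM in Mesoderm and 2.96 CPM in Extraembryonic Mesoderm at E18. At E21 it had 1.64 CPM in Mesoderm and 17.8 CPM in Extraembryonic Mesoderm. Day and embryo cannot be told apart here.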

How the data were processed

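RNA counts of single cells were used, 21834 genes by 3682 cells of 44 libraries. Per the submitters' processing notes, the authors used cutadapt 1.15, STAR 2.6.0a and HTSeq 0.10.0; not given in the sources used here are the genome build, whether counts are molecules or reads, how doublets were treated and how cell classes were named. Doublets were not searched for. Values were whole-number counts as the authors deposited them, with no normalisation, and the total of every cell equalled the total in the deposited annotation in 3682 of 3682 cells. No cell name was shared between libraries. The library numbered 27 is E22 by its title and E24 by its time label and annotation, and was left out.

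Counts were summed per library and class (at least 10 cells) and tested with edgeR 4.0.16 in R 4.3.3: quasi-likelihood F test, library as block, low counts filtered with filterByExpr, TMM normalisation, Benjamini-Hochberg adjustment over 10121 genes. The library pairs the sums because both classes come from the same library. SE was the log2 fold change divided by the square root of F. CPM in the text are not TMM-scaled and are not per length, so they compare classes and not genes. The fit was tested on simulated data, where edgeR recovered 19% of genes changed 2-fold and 96% of those changed 4-fold. The simulation gave every gene the same spread (dispersion 0.171) and no difference between libraries beyond depth. Its shares therefore do not give the power for a single gene of these data. Alternatives used DESeq2 1.42.0, limma 3.58.1 and the settings listed in the closing section; permutation tests used SciPy 1.17.1 and figures matplotlib 3.10.9. Shares of cells were also computed after thinning to 50000 counts, which left out 47 Mesoderm, 48 Extraembryonic Mesoderm and 7 Neural ectoderm cells.

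The comparison, the 34 gene lists (508 genes, 480 in the table, 296 tested) and the tests were chosen with earlier results of these data known. Genes named in the text are the 15 with the largest log2 fold change in each direction among called genes with at least 50 CPM in the higher class, up to 4 called members of each list in each direction, and list members of central role; other genes, such as further list members and those of the fine clusters, were chosen after their values were seen. No reference sequence was used here, so no sequences or positions are given. A few genes are not reported here.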

Additional observations from a re-analysis of the deposited data

Results flagged for a closer look

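For the 30 leading genes, each class was searched for a library that stood apart from the other 5 by Dixon's criterion for 6 samples, 60 groups in all, and 8 did so; chance gives about 1 in 20. In Mesoderm, TPD52L1 was highest in library 28 at 200.5 CPM, SST in library 28 at 1253 CPM, ENPEP in library 28 at 23.7 CPM, CRABP1 in library 31 at 426 CPM and STMN2 in library 33 at 37.0 CPM. In Extraembryonic Mesoderm, library 32, which had 17 cells of that class, was highest for COL2A1 at 37.3 CPM, PRRX1 at 49.2 CPM and ENO3 at 199 CPM. These genes kept their calls without the library concerned.

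Among the leading genes and the called members of the lists that ran 1 way in 6 of 6 libraries at E22, 6 ran the opposite way in the pools of both the E18 and the E21 embryo, by at least 1.5-fold with at least 10 CPM in the higher class. HOXA9 (log2 fold change 1.64) and HOXA10 (0.84) were higher in Mesoderm at E22. HOXA9 was at 0.244 CPM in Mesoderm and 42.9 CPM in Extraembryonic Mesoderm at E18, and at 8.60 and 46.1 CPM at E21, and HOXA10 at 2.44 and 41.7 CPM at E18, and 0.819 and 57.6 CPM at E21. FST (-2.39), HAND1 (-0.83), LEF1 (-0.79) and BMP4 (-0.46) were lower in Mesoderm at E22. FST was at 347 CPM in Mesoderm and 176 CPM in Extraembryonic Mesoderm at E18, and at 680 and 423 CPM at E21. HAND1 was at 580 CPM in Mesoderm and 324 CPM in Extraembryonic Mesoderm at E18, and at 541 and 207 CPM at E21. LEF1 was at 71.7 and 36.5 CPM at E18 and 72.1 and 43.1 CPM at E21, and BMP4 at 212 and 79.8 CPM at E18 and 344 and 173 CPM at E21, in Mesoderm and Extraembryonic Mesoderm. The difference between embryos was not tested, since each other embryo gave a single pool of each class.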

How the results depend on the processing

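The number of genes called higher and lower in Mesoderm was 749 and 1023, and it was 809 and 991 with RLE size factors, 807 and 1174 with no filter on low counts, 1095 and 1296 with DESeq2's Wald test, 965 and 1110 with limma-voom, 560 and 788 with at least 20 cells per class (which leaves out libraries 30 and 32), 771 and 970 with sums thinned to equal totals, 833 and 938 with cells of equal weight, and 630 and 893 with the largest fine cluster of each class. Without the replicate block it was 722 and 934, and 8 of the 174 called genes among those named or listed lost their call. Against a fold of 2 the counts were 21 and 179. Leaving out each library in turn gave 542 to 656 higher and 803 to 917 lower genes; leaving out libraries 28 and 32 together, an alternative chosen after seeing the data, gave 480 and 721. Of the 174 called genes, 130 kept their call in every one of these settings that tested them, the test against a fold of 2 set aside. Another 44 lost their call in at least 1, and none changed sign. A gene with too few counts for a test in a setting was not counted as lost there, such as OGN and ASPN with the largest fine cluster. PCDH18, not called at -0.02, was 0.76 (adjusted p = 0.0144, edgeR) against the largest fine cluster alone; cluster 5 is left out there by construction. The mean difference in counts per cell ranged between -32597 and -15965, and that in detected genes between -569 and -476, when 1 library was left out. Sums of 16 or 17 cells in libraries 30 and 32 limit the precision for genes of few counts, and a gene that was not called is not shown to be alike in the classes. Intervals and floors cover counting error only.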

Other observations

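TRIB3 and CHAC1, among the genes with the lowest values in Mesoderm, are known targets of ATF4, a transcription factor of the amino acid and endoplasmic reticulum stress responses, and other genes of those responses were looked up after these values had been seen, so they are no independent result. ATF4 itself had 174, 202 and 251 CPM in Mesoderm (lowest, median and highest library), against 384, 433 and 503 CPM in Extraembryonic Mesoderm (log2 fold change -1.12 ± 0.11, adjusted p = 3.39e-06, edgeR). DDIT3, a stress-induced partner of ATF4, had 1.66, 5.32 and 17.1 CPM in Mesoderm, against 31.3, 44.4 and 64.9 CPM in Extraembryonic Mesoderm (log2 fold change -2.89 ± 0.50). ASNS, asparagine synthetase, had 66.2, 88.4 and 101 CPM in Mesoderm, against 207, 289 and 335 CPM in Extraembryonic Mesoderm (log2 fold change -1.75 ± 0.13). These 3 genes did not overlap between the classes. The chaperone HSPA5 (-0.91), HERPUD1 (-1.35), SESN2 (-1.41), NUPR1 (-2.42) and the amino acid transporter SLC7A5 (-1.32) were lower as well, while PHGDH, of serine synthesis (-0.31), DDIT4 (-0.35), VEGFA (-0.10) and SLC3A2 (-0.69) were not called. TRIB3 was higher in Mesoderm in the E18 pool, at 26.1 CPM in Mesoderm and 2.96 CPM in Extraembryonic Mesoderm, which was not tested.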
